A study of Mus musculus with 4 samples.

Results

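The DNA methyltransferase and Tet enzyme genes were examined in single cells of 3 mouse cell lines: Dnmt1, Dnmt3a, Dnmt3b, Dnmt3l, Tet1, Tet2, Tet3 and Tdg. These 8 genes were taken by symbol out of the 33565 genes of the count matrices, and all 8 had at least 1 UMI (unique molecular identifier, a tag that marks 1 captured RNA molecule) in every line. Their level in a line is given as CPM, the counts per 1000000 UMIs, over cells that held no fewer than 1000 UMIs and no more than 20% of them mitochondrial.

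All cells went through 1 CapSeq experiment, a split-pool method in which the opening barcode, BC1, records the well and so the line. N2a (Neuro-2a), a mouse neuroblastoma line in BC1 columns 1 to 4, and NIH/3T3, a mouse embryonic fibroblast line in columns 5 to 8, were grown with 10% fetal bovine serum. The mouse embryonic stem cells (mESCs, line E14TG2a) in columns 9 to 12 were kept on gelatin with 15% serum, leukemia inhibitory factor, 3 µM CHIR99021, a GSK3 inhibitor, and 1 µM PD0325901, a MEK inhibitor. Each line was 1 sample within 1 library, so line, medium and plate columns cannot be told apart, and the lines are compared without a test or p-value. The brackets hold exact 95% intervals, Poisson for sums and binomial for shares, and take in counting error alone. A technical spread is given by the 32 BC1 sequences of each line, which share the sample and are not replicates.

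DNA methylation in mammals is placed on cytosines next to guanines (CpG) by Dnmt3a and Dnmt3b, and is copied to the new strand after replication by Dnmt1. Tet enzymes oxidize the methyl group, and Tdg excises the oxidized bases so that repair can put back an unmodified cytosine. Mouse embryonic stem cells grown with the MEK and GSK3 inhibitors are known for low global methylation, while differentiated cells keep theirs largely through the maintenance pathway. Methylation itself was not measured in these cells.

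The filter kept 2323 N2a cells with a median of 6185 UMIs, 2037 NIH/3T3 cells with 4863, and 2137 mESCs with 4803. Summed depth was 17955221, 11697865 and 12322098 UMIs in the same order. No barcode was shared between lines, which follows from the split by BC1 and does not measure how cleanly the lines were separated. All 9 mESC markers and all 9 fibroblast markers were highest in their own line, as were 7 of the 9 neuroblastoma markers, Gata3 and Stmn2 being higher in mESCs. The 8 genes together took 548 CPM in N2a, 342 CPM in NIH/3T3 cells and 2218 CPM in mESCs.

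Dnmt1, the maintenance methyltransferase, was measured at similar levels in the 3 lines. It stood at 163 CPM (158 to 169) in N2a, 189 CPM (181 to 197) in NIH/3T3 cells and 226 CPM (218 to 234) in mESCs. The mESC level was 1.38 times (1.31 to 1.46) that of N2a and 1.19 times (1.13 to 1.26) that of NIH/3T3. Over BC1 sequences the levels ran from 134 to 227 CPM with a median of 161 in N2a, from 99.3 to 241 with a median of 190.1 in NIH/3T3, and from 166 to 277 with a median of 228 in mESCs. These ranges overlapped for every pair of lines. A Dnmt1 UMI was found in 58.9% of N2a cells, 56.4% of NIH/3T3 cells and 63.4% of mESCs. After each cell was thinned to 1000 UMIs, so that depth no longer differed, the shares were 14.0%, 16.4% and 19.8%.

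**Figure D1:**
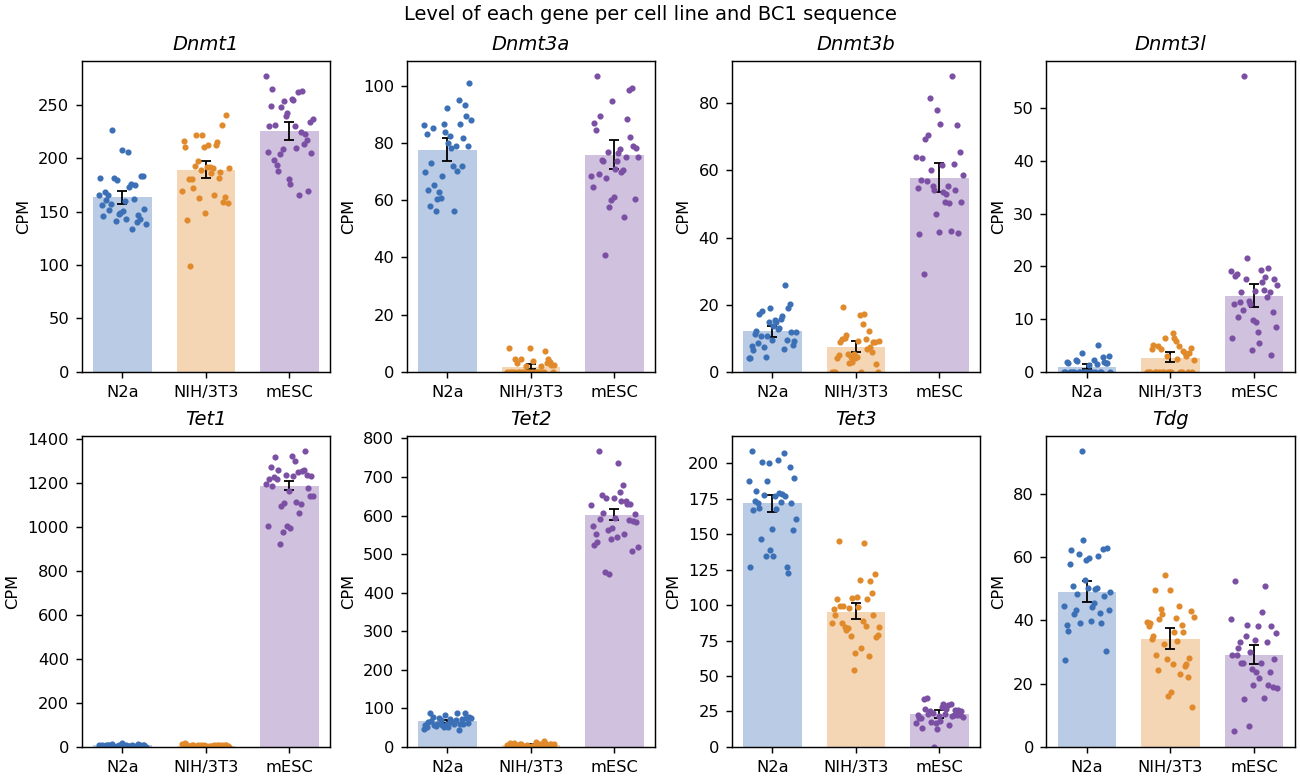
Level of each of the 8 genes in CPM (linear axis from 0, a separate scale per gene) in N2a, NIH/3T3 and mESCs. Bars give the level of the line with its exact 95% Poisson interval and points give the 32 BC1 sequences, and the Tet1 points of mESCs lie between 923 and 1347 CPM while those of N2a and NIH/3T3 reach at most 18.9 CPM.

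Dnmt3a, a de novo methyltransferase, was found in N2a and mESCs at nearly equal levels and was scarce in NIH/3T3. The values were 77.6 CPM (73.6 to 81.8) in N2a, 1.71 CPM (1.04 to 2.64) in NIH/3T3 cells and 75.8 CPM (71.0 to 80.8) in mESCs. The ratio of mESCs to N2a was 0.976 (0.898 to 1.06), whereas N2a had 45.4 times (29.3 to 74.6) and mESCs 44.3 times (28.5 to 72.9) the level of NIH/3T3. The NIH/3T3 level rested on 20 UMIs in 20 cells, or 0.982% of cells (0.601% to 1.51%), against 39.0% of N2a cells and 29.9% of mESCs. At 1000 UMIs per cell the shares were 7.75% in N2a, 0.295% in NIH/3T3 cells and 6.50% in mESCs. In NIH/3T3 18 of the 32 BC1 sequences held no Dnmt3a UMI and the highest reached 8.47 CPM, below the lowest BC1 sequence of N2a at 56.1 CPM and of mESCs at 40.8 CPM.

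Dnmt3b, the other de novo enzyme, was highest in mESCs. It was measured at 12.1 CPM (10.5 to 13.8) in N2a, 7.44 CPM (5.96 to 9.17) in NIH/3T3 cells and 57.9 CPM (53.7 to 62.3) in mESCs, which is 4.79 times (4.11 to 5.60) the N2a level and 7.78 times (6.22 to 9.84) the NIH/3T3 level. Every mESC BC1 sequence, from 29.3 to 88.2 CPM, lay above every one of N2a, at most 25.8 CPM, and of NIH/3T3, at most 19.4 CPM. The N2a and NIH/3T3 ranges overlapped. Cells with a Dnmt3b UMI made up 8.35% of N2a, 4.07% of NIH/3T3 and 24.1% of mESCs, and 1.38%, 0.835% and 6.60% at 1000 UMIs per cell.

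The balance of the de novo pair differed among the lines. Dnmt3a UMIs were 86.5% (84.8% to 88.2%) of the Dnmt3a and Dnmt3b UMIs in N2a, 56.7% (54.3% to 59.1%) in mESCs and 18.7% (11.8% to 27.4%) in NIH/3T3, the last share being of 107 UMIs. Dnmt1 UMIs were 64.6% of the UMIs of the 3 methyltransferases in N2a, 62.8% in mESCs and 95.4% in NIH/3T3. These shares compare the lines with each other and not the genes, since counts of different genes are not on a per length scale. Both Dnmt3a and Dnmt3b were seen in 4.35% of N2a cells, 0.147% of NIH/3T3 cells and 9.08% of mESCs.

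Dnmt3l, which lacks catalytic activity and stimulates the de novo enzymes, was low in all lines and highest in mESCs. The levels were 1.00 CPM (0.594 to 1.58) in N2a from 18 UMIs, 2.65 CPM (1.80 to 3.76) in NIH/3T3 from 31 UMIs and 14.4 CPM (12.3 to 16.6) in mESCs from 177 UMIs. The mESC level was 14.3 times (8.81 to 24.7) that of N2a and 5.42 times (3.69 to 8.22) that of NIH/3T3. One mESC BC1 sequence stood apart at 56.1 CPM, with 11 UMIs in 7 of its 52 cells, while the next highest was at 21.6 CPM. Without that sequence the mESC level was 13.7 CPM (11.7 to 15.9), or 13.7 times N2a and 5.17 times NIH/3T3. The mESC range over BC1 sequences overlapped those of the other lines, since the lowest mESC sequence was at 3.20 CPM, the highest N2a sequence at 5.18 CPM and the highest NIH/3T3 sequence at 7.46 CPM. A Dnmt3l UMI was found in 0.732% of N2a cells, 1.52% of NIH/3T3 cells and 6.13% of mESCs. Thinned to 1000 UMIs, 0 of 2323 N2a cells held one, which by the limit of 3 counts allows a share of up to 0.129%, against 0.147% of NIH/3T3 cells and 1.40% of mESCs.

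Tet1, the dioxygenase known as the main Tet enzyme of embryonic stem cells together with Tet2, showed the largest ratio between lines of the 8 genes. It was measured at 6.74 CPM (5.59 to 8.05) in N2a, 5.98 CPM (4.66 to 7.56) in NIH/3T3 cells and 1189 CPM (1170.1 to 1209) in mESCs. The mESC level was 176 times (148 to 213) that of N2a and 199 times (157 to 255) that of NIH/3T3. Only 38 of the 15213 genes tested had a larger mESC to N2a ratio of CPM + 1, and 27 a larger mESC to NIH/3T3 ratio. N2a and NIH/3T3 could not be separated, with a ratio of 1.13 (0.832 to 1.53). Over BC1 sequences Tet1 ran from 0 to 18.9 CPM in N2a, from 0 to 18.1 CPM in NIH/3T3, and from 923 to 1347 CPM with a median of 1208 in mESCs.

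A Tet1 UMI was present in 92.3% of mESCs (91.1% to 93.4%), 4.78% of N2a cells and 3.24% of NIH/3T3 cells. With 1000 UMIs per cell the shares were 64.4%, 0.517% and 0.884%. At least 3 Tet1 UMIs were counted in 73.7% of mESCs and in no cell of the other lines, and the highest count in 1 mESC was 48. The 165 mESCs without a Tet1 UMI had a median of 2093 UMIs, against 5085 for the others, and still carried 4576 CPM of the mESC markers and 441 CPM of Tet2, against 6210.2 and 608 CPM. Within mESCs the level over 4 depth groups of equal cell number was 1081, 1154, 1145 and 1244 CPM from the shallowest to the deepest cells. The thinned mESCs had a mean of 1.12 Tet1 UMIs per cell and a variance to mean ratio of 1.16, where counting alone gives about 1.

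The low Tet1 counts of N2a and NIH/3T3 were 0.567% and 0.503% of the mESC level. In the same cells the mESC marker Nanog stood at 0.273% and 0.209% of its mESC level, Dppa5a at 0.324% and 0.624%, and Zfp42 at 0.0592% and 0.0908%. Others of the 9 markers stood above Tet1, Tfcp2l1 at 1.35% in N2a and Klf4 at 5.23% and 55.9%, the list as a whole stood at 0.555% and 2.37%, and no marker was at 0. In NIH/3T3, Tet1 was at 13.8 CPM (7.57 to 23.2), from 14 UMIs, in the shallowest of 4 such depth groups. It was at 5.13 to 5.51 CPM in the others and 23.8 CPM (17.2 to 32.1) in barcodes outside the filtered cells. Tet2 in NIH/3T3 went the other way over the depth groups, at 2.97, 3.08, 3.57 and 6.90 CPM from shallowest to deepest. Outside the filtered cells Tet2 was at 13.8 CPM (8.95 to 20.4). Whether the Tet1 UMIs of N2a and NIH/3T3 came from the cells themselves or from free RNA was not tested.

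Tet2, a second dioxygenase, took a graded course over the lines. Its level was 66.4 CPM (62.7 to 70.3) in N2a, 5.04 CPM (3.84 to 6.51) in NIH/3T3 cells and 603 CPM (589 to 617) in mESCs. The mESC level was 9.08 times (8.54 to 9.66) that of N2a and 119.5 times (92.5 to 157) that of NIH/3T3, and the N2a level was 13.2 times (10.1 to 17.4) that of NIH/3T3. The BC1 ranges did not overlap for any pair: 44.9 to 87.9 CPM in N2a, 0 to 16.1 CPM in NIH/3T3 cells and 449 to 768 CPM in mESCs. Tet2 UMIs were seen in 33.9% of N2a cells, 2.55% of NIH/3T3 cells and 84.6% of mESCs, or 7.19%, 0.393% and 43.3% after thinning. Tet1 and Tet2 were found together in 80.2% of mESCs, and 3.37% had neither.

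Tet3, the member of the family known from the oocyte and from neurons, was lowest in mESCs. It was measured at 172 CPM (166 to 178) in N2a, 95.5 CPM (90.0 to 101) in NIH/3T3 cells and 23.1 CPM (20.5 to 26.0) in mESCs. N2a had 7.42 times (6.57 to 8.41) and NIH/3T3 4.13 times (3.62 to 4.72) the mESC level, and N2a had 1.80 times (1.68 to 1.93) that of NIH/3T3. The mESC sequences of BC1, from 0 to 34.2 CPM, all lay below those of N2a, from 123 to 209 CPM, and of NIH/3T3, from 54.1 to 145 CPM, while N2a and NIH/3T3 overlapped. Cells with a Tet3 UMI made up 60.4% of N2a, 37.1% of NIH/3T3 and 11.4% of mESCs, and 14.5%, 9.23% and 2.15% at 1000 UMIs per cell. The last 5383 bases of Tet3 overlap Bola3 on the opposite strand, which had 2105, 706 and 622 UMIs in the same order of lines. The sources used here do not state the strand setting of the counting, so reads of this overlap may be counted to either gene.

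**Figure D2:**
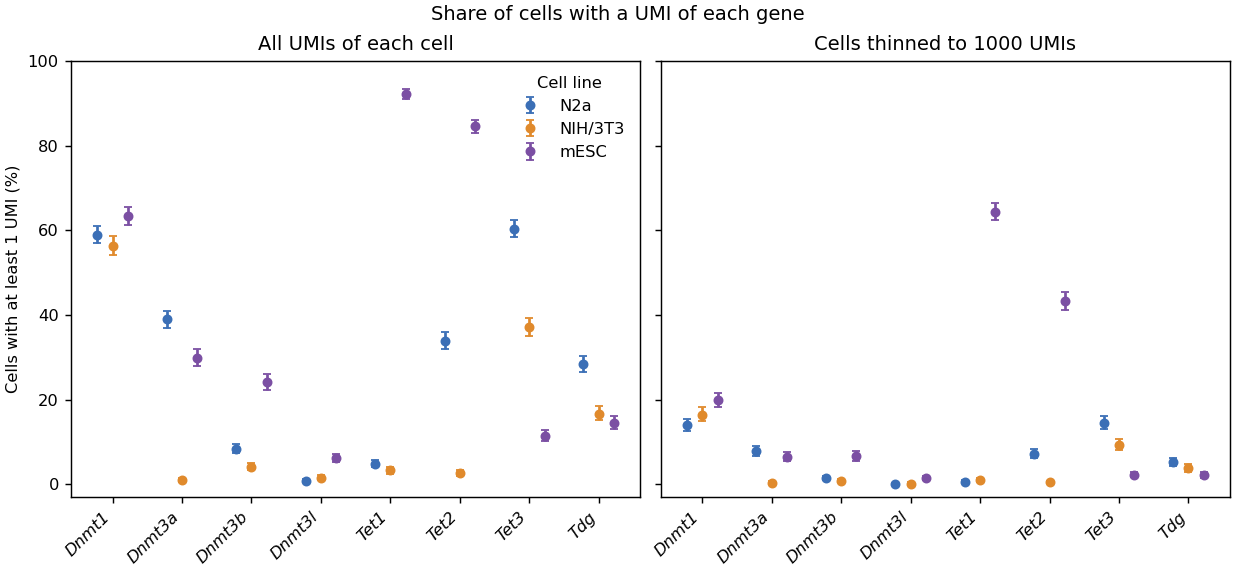
Percent of cells with at least 1 UMI of each gene in N2a, NIH/3T3 and mESCs, with exact 95% binomial intervals, from all UMIs of a cell (left) and after thinning to 1000 UMIs (right). Tet1 and Tet2 are highest in mESCs in both panels, at 92.3% and 84.6% unthinned, and Tet3 is lowest in mESCs in both.

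The makeup of the Tet UMIs differed between the lines. Tet3 gave 70.1% (68.7% to 71.5%) of them in N2a, 89.6% (87.8% to 91.3%) in NIH/3T3 cells and 1.27% (1.13% to 1.43%) in mESCs. Tet1 gave 2.75%, 5.62% and 65.5%, and Tet2 gave 27.1%, 4.74% and 33.2%. The 3 Tet genes together reached 245 CPM in N2a, 107 CPM in NIH/3T3 cells and 1815 CPM in mESCs, while Dnmt1, Dnmt3a and Dnmt3b together reached 253, 198 and 360 CPM (349 to 370).

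The windows of 250 bases upstream of the annotated starts of Tet3, lowest in mESCs, and Dnmt3l, highest in mESCs, are printed as examples. They differ in how many of the CpG positions that the enzymes act on lie before their starts. Whether that number goes with the level over the members was not tested. Both windows were read from the GRCm39 genome at the canonical transcripts of GENCODE M39 and run 5′ to 3′ on the strand of the gene. They overlap no annotated exon and carry each CpG in capitals.
Tet3, chr6:83433375-83433624, minus strand: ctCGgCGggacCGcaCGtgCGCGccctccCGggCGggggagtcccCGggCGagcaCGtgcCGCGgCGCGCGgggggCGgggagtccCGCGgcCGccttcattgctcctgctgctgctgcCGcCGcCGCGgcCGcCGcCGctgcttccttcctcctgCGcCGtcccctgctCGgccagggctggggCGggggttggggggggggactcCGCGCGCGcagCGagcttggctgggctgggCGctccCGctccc
Dnmt3l, chr10:77885426-77885675, plus strand: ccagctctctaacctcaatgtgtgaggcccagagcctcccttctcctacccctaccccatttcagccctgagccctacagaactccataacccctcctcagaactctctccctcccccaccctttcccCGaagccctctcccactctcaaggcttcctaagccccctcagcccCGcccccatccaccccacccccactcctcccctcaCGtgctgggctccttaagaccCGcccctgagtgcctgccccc
The Tet3 window holds 38 CpG positions, 0.914 of the number that its base composition gives, and the Dnmt3l window holds 4, or 0.250. The median over the same window of 21770 protein-coding genes was 8, and 0.850% of them held more than Tet3 while 63.6% held more than Dnmt3l. The letters GGGCGG, the core of the GC box, were found on either strand 3 times before Tet3 and 2 times before Dnmt3l, and in 36.3% of all windows at least once. For the other members the windows before the canonical start held 39 CpG positions for Dnmt3a, 17 for Dnmt3b, 17 for Tet2, 13 for Tdg, 7 for Dnmt1 and 2 for Tet1. Annotated exons overlapped the windows of Dnmt1 (14), Tet1 (5), Tet2 (4), Dnmt3b (2) and Tdg (1). Every window except that of Tdg, the printed ones included, lay wholly or in part within the annotated span of its gene. The UMI counts do not tell which of a gene's annotated starts was used, and methylation of these windows was not measured.

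Tdg, the glycosylase that excises the bases Tet enzymes produce, varied least after Dnmt1. It stood at 49.1 CPM (45.9 to 52.5) in N2a, 34.1 CPM (30.8 to 37.6) in NIH/3T3 cells and 29.2 CPM (26.3 to 32.4) in mESCs. N2a had 1.68 times (1.49 to 1.91) the level of mESCs and 1.44 times (1.28 to 1.63) that of NIH/3T3, and the BC1 ranges overlapped for every pair. A Tdg UMI was found in 28.3%, 16.7% and 14.5% of the cells in that order, and in 5.17%, 3.73% and 2.11% after thinning. On the opposite strand Tdg overlaps Uqcc6 by 487 bases, which had 374, 158 and 344 UMIs, and Glt8d2 by 8972 bases, which had 11, 57 and 5 UMIs.

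The ratios were set beside those of all genes by counting those with at least 2 times the CPM + 1 of the other line among the 15213 genes with a mean of at least 1 CPM. Of the 8 genes, 4 were higher in mESCs than in N2a (Dnmt3b, Dnmt3l, Tet1 and Tet2), where 20.7% of all genes were, and 1 was higher in N2a (Tet3), where 21% were. Against NIH/3T3, 5 were higher in mESCs (the same 4 and Dnmt3a), where 23.6% of all genes were, and 1 was higher in NIH/3T3 (Tet3), where 20% were. Between the other pair, Dnmt3a and Tet2 were higher in N2a, where 19.9% of all genes were, and 0 of the 8 were higher in NIH/3T3, where 17% were. The median log2 ratio of the 8 genes was 1.32 for mESCs over N2a, 2.44 for mESCs over NIH/3T3 and 0.57 for N2a over NIH/3T3, beside -0.02, 0.05 and 0.05 over all genes tested. The mESC comparisons share the mESC sample, and the 8 genes were chosen for their function with earlier results of these data known.

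**Figure D3:**
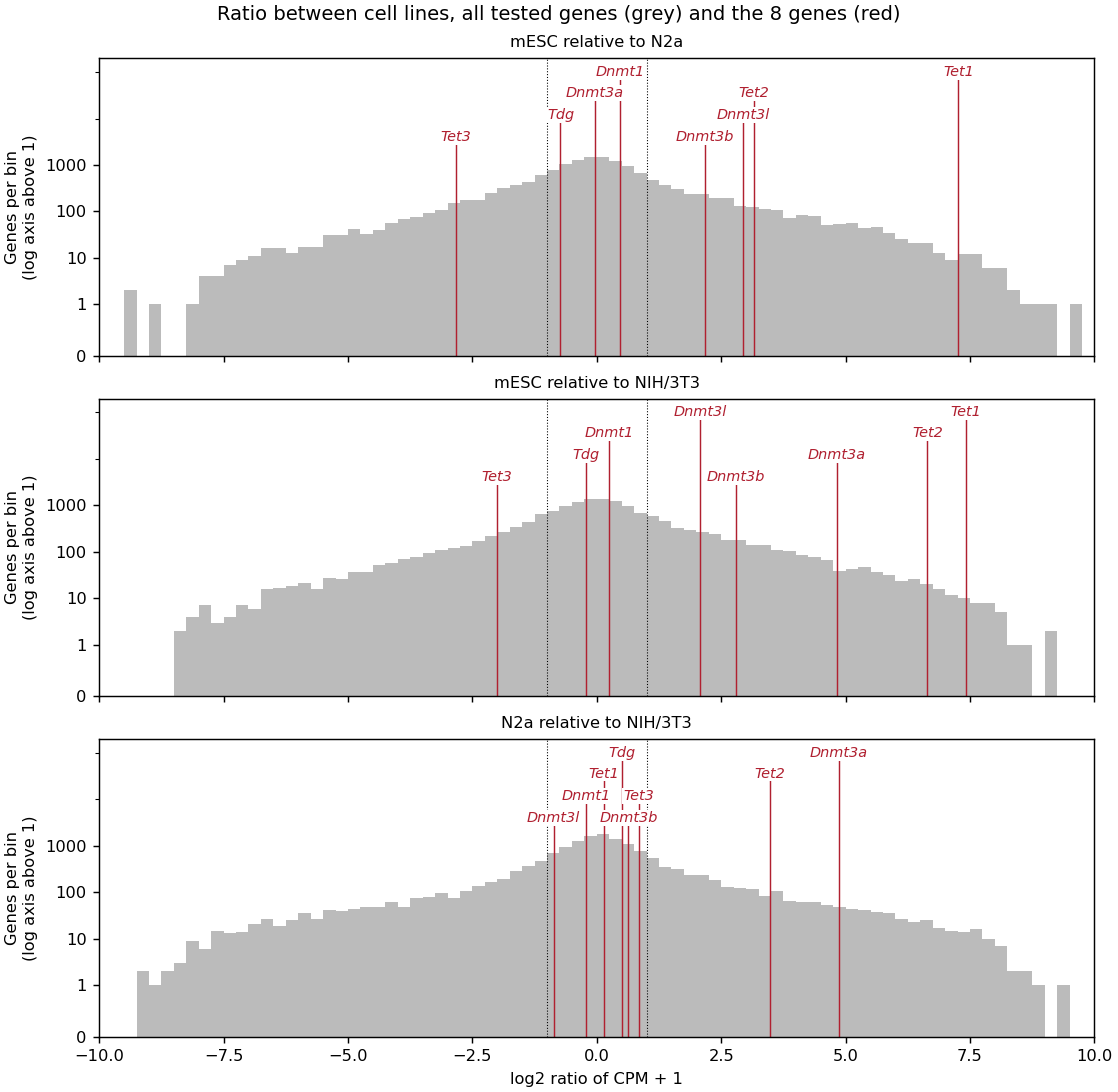
Number of genes per bin of the log2 ratio of CPM + 1 (symmetric log axis above 1) between each pair of lines for the 15213 genes tested, in grey, with the 8 genes as red lines and dotted lines at a ratio of 2 in each direction. Tet1 lies at 7.26 and 7.41 in the comparisons with mESCs and Tet3 lies left of the dotted lines in both, at -2.84 against N2a, while Dnmt1 and Tdg lie inside the dotted lines in all 3.

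Within a line, cells were ranked by the share of their UMIs in a list of 34 S-phase genes, none of them a member, and the cells were split into 3 equal groups, of which the highest was set beside the lowest. Dnmt1 was higher in the S-phase-high group of each line. It went from 112 to 216 CPM in N2a, a ratio of 1.93 (1.75 to 2.12), from 140 to 232 CPM in NIH/3T3, a ratio of 1.66 (1.49 to 1.86), and from 209 to 234 CPM in mESCs, a ratio of 1.12 (1.02 to 1.23). The intervals of the N2a and NIH/3T3 ratios did not overlap that of mESCs. Uhrf1, which brings Dnmt1 to newly replicated DNA, had ratios of 2.93 (2.67 to 3.22), 2.30 (2.00 to 2.64) and 1.51 (1.39 to 1.63). The list itself spanned less in mESCs, from a mean of 4471 to 8517 CPM, than in N2a, from 2003 to 7416 CPM, and in NIH/3T3, from 2407 to 6617 CPM.

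Dnmt3b in mESCs went from 48.0 to 66.7 CPM, a ratio of 1.39 (1.15 to 1.69). Tet3 was lower in the S-phase-high group of N2a, with a ratio of 0.818 (0.748 to 0.894), and of NIH/3T3, with 0.776 (0.666 to 0.905), and Tet2 was lower in that of N2a, with 0.728 (0.630 to 0.841). Tet1 in mESCs had a ratio of 1.01 (0.966 to 1.05). Of the 24 pairs of a member and a line, 5 had an interval above 1 and 3 an interval below 1, and with cells split into 2 groups instead 3 were above. Among the 5 was Tet2 in mESCs, with a ratio of 1.06 (1.00 to 1.12). The share of all genes with such intervals was not computed, so the counts cannot be read as particular to these members. Median depth differed little between the groups, at 5872 and 6228 UMIs in N2a, 4365 and 4850.0 in NIH/3T3, and 4239 and 4662 in mESCs.

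Over a list of 30 G2/M genes, 3 of the 24 pairs had an interval above 1 and 1 below. For this list too the share of all genes with such intervals was not computed, so these counts cannot be read as particular to the members. Tet1 in mESCs went from 1083 to 1280 CPM, a ratio of 1.18 (1.13 to 1.23), Dnmt1 in N2a had a ratio of 1.27 (1.16 to 1.40), Dnmt3b in mESCs 1.21 (1.00 to 1.45) and Tet3 in N2a 0.844 (0.776 to 0.919). Median depth in the lowest and highest group was 5617.5 and 6808 UMIs in N2a, 4462 and 5153 in NIH/3T3, and 4436.5 and 5061 in mESCs. Tet1 in mESCs also went from 1081 CPM in the shallowest to 1244 CPM in the deepest of the 4 depth groups. Whether depth bears on its G2/M ratio was not tested. Such a group is a range of a score and not a phase. For the G2/M list 266 N2a cells, 179 NIH/3T3 cells and 314 mESCs lay within 10% of the upper bound. For the S-phase list these numbers were 260, 356 and 641.

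**Figure D4:**
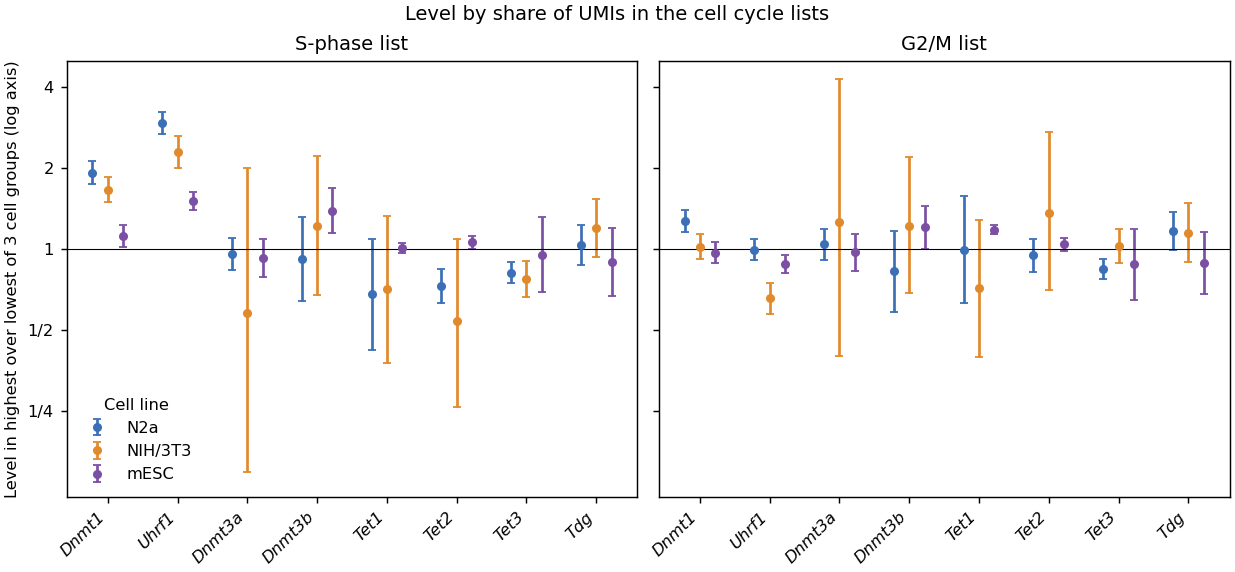
Ratio of the level in the highest of 3 equal groups of cells to that in the lowest (log axis), ranked by the share of UMIs in the S-phase list (left) or the G2/M list (right), with exact 95% intervals for counting error, for 7 of the 8 genes and Uhrf1 in each line. Dnmt1 and Uhrf1 lie above 1 in all lines on the left, at 1.93 and 2.93 in N2a.

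Among mESCs, 73 cells with at least 3 UMIs of a list of 2-cell-stage transcripts such as Zscan4c had lower Tet1 and Tet2 levels. Tet1 was at 592 CPM (514 to 677) in them and 1207 CPM (1187 to 1227) in the other 2064 cells, a ratio of 0.490 (0.426 to 0.562), and Tet2 had a ratio of 0.474 (0.387 to 0.576). Dnmt3b had 5 UMIs in these cells and a ratio of 0.238 (0.0771 to 0.558), while Dnmt1 had 0.806 (0.620 to 1.03) and Dnmt3a 1.08 (0.719 to 1.56). The median depth was 3957 UMIs in these cells and 4841 in the others. In 50 cells with little Zfp42, a share more than 5 times below that over all mESCs, Tet1 was at 0.651 (0.566 to 0.745), Tet2 at 0.768 (0.639 to 0.914) and Uhrf1 at 0.543 (0.406 to 0.712) of the level in the other 1524 cells of at least 3000 UMIs. The interval included 1 for Dnmt1 at 0.802 (0.594 to 1.06), Dnmt3a at 1.35 (0.892 to 1.97), Dnmt3b at 0.758 (0.390 to 1.33) and Dazl at 1.33 (0.979 to 1.78). Dnmt3l, Tet3 and Tdg had at most 3 UMIs in these 50 cells. Median depth was 4678.5 UMIs in them and 6066.5 in the others.

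The same count was made for lists of pathway genes. The list for the maintenance step held 8 genes, among them Dppa3, which acts against that step. Of these genes, 4 had at least 2 times the CPM + 1 in mESCs that they had in N2a (Hells, Cdca7, Usp7 and Dppa3). The reverse held for 0, where 20.7% and 21% of all genes were higher and lower. Against NIH/3T3, 3 were higher in mESCs (Uhrf1, Usp7 and Dppa3) and 1 was higher in NIH/3T3, Cdca7l, where 23.6% and 20% of all genes were. Uhrf1 stood at 189 CPM in N2a, 133 CPM in NIH/3T3 cells and 352 CPM in mESCs. Usp7, a deubiquitinase that stabilizes Dnmt1 and Uhrf1, stood at 195, 184 and 637 CPM. Dppa3, which keeps Uhrf1 off chromatin, had 1 UMI in N2a, 0 in NIH/3T3 cells and 123 in mESCs, so its mESC level of 9.98 CPM was at least 38.9 times that of NIH/3T3.

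Among 8 genes of de novo methylation and silencing, 5 were at least 2 times higher in mESCs in both comparisons, where 20.7% and 23.6% of all genes were, and 0 were lower by that factor. Ehmt1, a lysine 9 methyltransferase, was at 129 CPM in mESCs and 245 CPM in N2a, a ratio of 0.527 (0.497 to 0.558). Nsd1, a methyltransferase for histone H3 lysine 36, was at 7.02 CPM in N2a, 15.2 CPM in NIH/3T3 cells and 682 CPM in mESCs. Prdm14, a repressor of Dnmt3b in embryonic stem cells, was at 2.00, 0.513 and 33.9 CPM. Trim28 and Zfp57, which guard methylation at imprinted regions, were at 517 and 198 CPM in mESCs, against 132 and 6.79 CPM in N2a and 96.3 and 15.6 CPM in NIH/3T3. Setd2, also a lysine 36 methyltransferase, was at 152, 220.5 and 211 CPM.

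Of 6 partners of the Tet enzymes, 1 was at least 2 times higher in mESCs than in N2a (Idh1) and 1 the reverse (Cxxc4), and against NIH/3T3 2 were higher in mESCs (Cxxc5 and Idh1) and 0 the reverse, beside all-gene shares of 20.7%, 21%, 23.6% and 20%. Idh1, which makes their cosubstrate 2-oxoglutarate, was at 56.1 CPM in N2a, 51.8 CPM in NIH/3T3 cells and 173 CPM in mESCs, and Idh2, which makes it in mitochondria, was at 59.9, 144 and 111 CPM. Cxxc5 followed the order of Dnmt3a, at 58.6, 3.68 and 54.9 CPM. Cxxc4, which binds Tet2, had 1073 UMIs or 59.8 CPM in N2a, 0 UMIs in NIH/3T3 cells and 2 in mESCs, so that N2a had at least 233 times the NIH/3T3 level. Ogt, a glycosyltransferase bound by Tet proteins, was at 91.2, 104 and 171 CPM.

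Of 14 genes of base excision repair and its helpers, 4 were at least 2 times higher in mESCs than in N2a and 1 was lower, and against NIH/3T3 4 were higher and 3 lower, beside all-gene shares of 20.7%, 21%, 23.6% and 20%. Ung, the uracil glycosylase, was at 32.1 CPM in N2a, 18.2 CPM in NIH/3T3 cells and 84.5 CPM in mESCs, whereas Neil3 was at 43.6, 34.4 and 15.3 CPM. Gadd45b was at 8.13, 96.3 and 40.6 CPM. Of 6 genes listed with the families of methyl-CpG readers, not all of which need bind methylated CpG, 1 was at least 2 times higher in mESCs in each comparison. These were Zbtb38 over N2a and Zbtb4 over NIH/3T3, beside 20.7% and 23.6% of all genes. Of 3 related enzymes with other substrates, Trdmt1, which methylates tRNA despite its likeness to the methyltransferases, was at 10.4, 9.57 and 9.41 CPM.

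**Figure D5:**
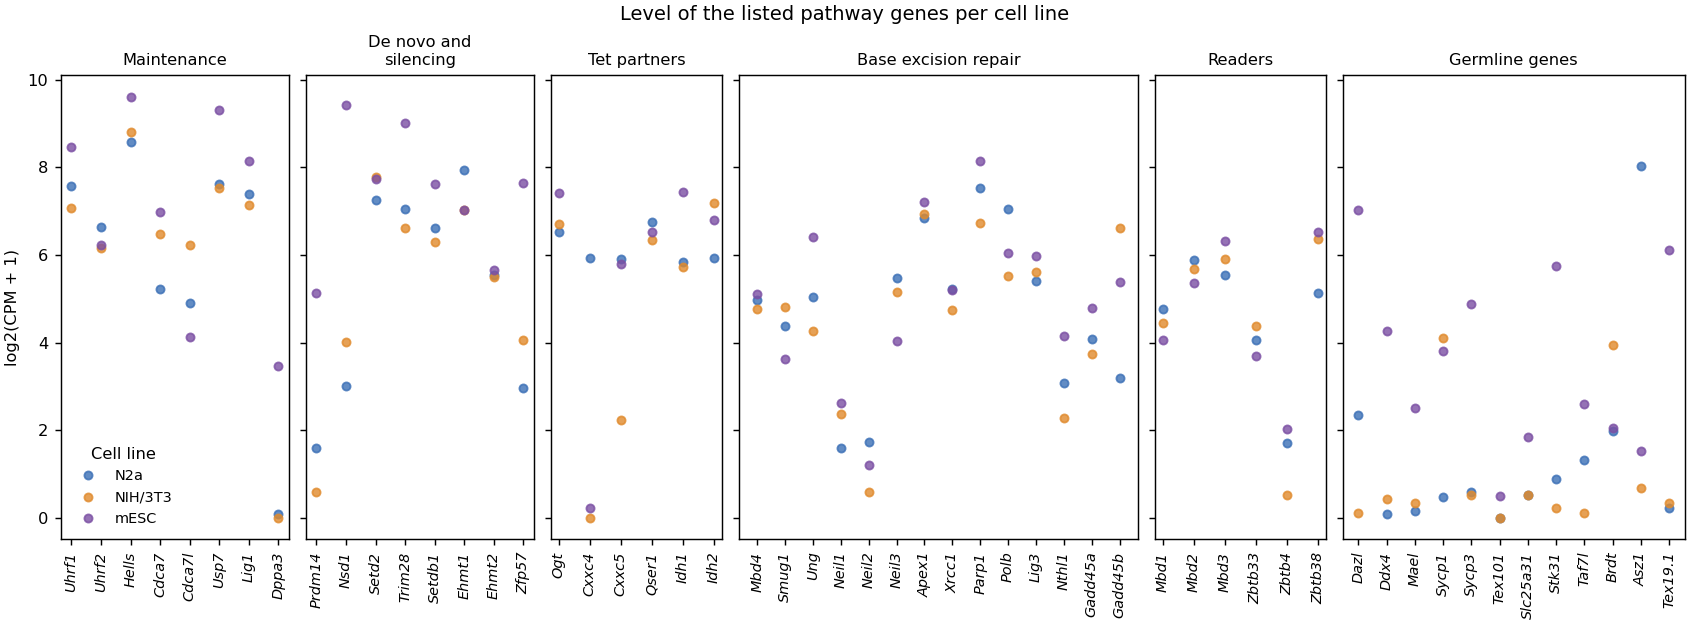
Level of the pathway genes as log2(CPM + 1) in N2a, NIH/3T3 and mESCs, 1 column per gene and 1 panel per list. The mESC points stand apart for Nsd1 at 682 CPM, Zfp57 at 198 CPM and Dazl at 129 CPM, and the N2a point for Cxxc4 at 59.8 CPM and Asz1 at 259 CPM.

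Germline genes known to be kept silent by promoter methylation were also listed, 12 in all, of which 11 passed the mean of 1 CPM. In mESCs 9 were at least 2 times higher than in N2a and 8 than in NIH/3T3, with 1 lower in each case, Asz1 and Brdt. Of all genes, 20.7% and 23.6% were higher and 21% and 20% lower. Dazl, an RNA-binding protein of germ cells, was at 4.07 CPM in N2a, at 0.0855 CPM from 1 UMI in NIH/3T3 cells and at 129 CPM in mESCs, where 32.6% of cells held a UMI and the 78 cells with 5 or more held 34.3% of the UMIs. Tex19.1 was at 0.167, 0.256 and 68.6 CPM, Stk31 at 0.835, 0.171 and 52.8 CPM, and Sycp3 at 0.501, 0.427 and 28.5 CPM. Some were found outside mESCs: Asz1 was at 259 CPM in N2a, 0.598 CPM in NIH/3T3 cells and 1.87 CPM in mESCs, and Sycp1 was at 0.390, 16.2 and 12.9 CPM. In the cells with 2-cell-stage transcripts Dazl was 1.57 times (1.22 to 2.00) the level of the other mESCs.

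The genes with the most similar levels were found by the Euclidean distance of log2(CPM + 1) over the 3 lines, which share depth and library with the members. Dnmt1 was nearest to Cdk1, at 159, 191 and 223 CPM, with a distance of 0.05, and 142 genes lay within 0.5. Tdg was nearest to Agpat1 at 0.10, with 205 genes within 0.5, so these patterns were common. Tet1, Tet2 and Dnmt3a had no gene within 0.5, and Dnmt3b had 1. Tet1 was nearest to Etl4, at 4.73, 8.89 and 686 CPM with a distance of 1.03, and to Dppa5a at 1.04. Tet2 was nearest to Dppa2, at 67.2, 8.81 and 361 CPM, Dnmt3a to Dclk2, Dnmt3b to Slc49a4, Dnmt3l to Ankrd35 and Tet3 to Laptm4b.

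Counted per cell, a median of 2 of the 8 genes was detected in N2a, 1 in NIH/3T3 cells and 3 in mESCs. At 1000 UMIs per cell, 58.6% (56.6% to 60.6%) of N2a cells, 71.2% (69.2% to 73.1%) of NIH/3T3 cells and 14.4% (12.9% to 15.9%) of mESCs had none.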

How the data were processed

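The authors split the reads by BC1, trimmed the template switching sequence, and ran STARsolo to align and count them, using the GRCm39 genome and the GENCODE M30 annotation. The deposited values are raw UMI counts, as 4 matrices of genes by barcodes, 1 per line and 1 pooled, without a cell filter. The counting feature mode and strand setting are not given in the sources used here. Barcodes under 1000 UMIs or over 20% mitochondrial UMIs were dropped, the filter of the methods, and no doublet caller was run, so the 5% deepest cells were left out as an alternative. CPM, exact intervals and ratios were computed with Python 3.11.15, numpy 2.4.6, scipy 1.17.1 and pandas 2.3.3, and the steps were tested on simulated data. Where no UMI was found, 3 counts served as the limit. Cells were thinned at random to 1000 UMIs. Totals were 17955221, 11697865 and 12322098 UMIs for N2a, NIH/3T3 and mESCs, so 3 counts equal 0.167, 0.256 and 0.243 CPM. Genes were named by fixed lists, with the 2 nearest genes in pattern per member, and 1 listed gene is not reported here. The members and lists were chosen with earlier results of these data known. Positions came from GENCODE M39, where 32953 of 33565 identifiers were found.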

Additional observations from a re-analysis of the deposited data

Results flagged for a closer look

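The pooled matrix, made without splitting by BC1 and not used in the comparisons, held 1182 UMIs of the 8 genes beyond the sum of the line matrices, or 2.47% of their pooled UMIs against 2.32% for all genes. Barcodes outside the filtered cells held 5517 UMIs of the 8 genes, or 11.8% of those in the line matrices against 12.6% for all genes. Among these barcodes of NIH/3T3, Tet1 was at 23.8 CPM (17.2 to 32.1) and Tet2 at 13.8 CPM (8.95 to 20.4), against 5.98 and 5.04 CPM in the filtered cells.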

How the results depend on the processing

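No paired analysis was possible because each line was 1 sample, and leaving out a replicate could not be tried. Over the alternatives run, 200 of 217 levels, 213 of 216 ratios, 105 of 216 shares and 101 of 104 counts stayed within the counting interval of the value reported, or for counts within 1.5 times of it. No ratio whose interval excluded 1 changed direction. The Tet1 ratio of N2a over NIH/3T3, 1.13 with an interval that includes 1, was 0.844 with all barcodes and 0.920 with the mean of cell CPM. Thinning and a minimum of 2 UMIs lowered the shares by construction. The ratio that moved most was Tet1 of mESCs over NIH/3T3, from 136 with the mean of cell CPM to 233. With a mean of at least 5 CPM, 2293 genes were at least 2 times higher in mESCs than in NIH/3T3, since fewer genes were tested. With 2 groups of cells in place of 3, 3 pairs were higher in the S-phase-high group. With no offset, 1 member, Dnmt3l, was at least 2 times higher in NIH/3T3 than in N2a, where the offset of 1 CPM counted 0. Leaving out the BC1 sequence highest in Dnmt3l was chosen after seeing the data. Depth limits Dnmt3a in NIH/3T3 and Dnmt3l in N2a, with 20 and 18 UMIs.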
